A study of Rattus norvegicus with 4 samples.

Results

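The genes described here encode fibrillar collagens of connective tissue, a collagen that binds to fibrils, and proteins that fold, modify and cross-link collagen. They are Col1a1, Col1a2, Col3a1, Col5a1, Col5a2, Col14a1, Serpinh1, P4ha1, Plod2 and Lox, measured in rat ventral prostate after a dose of PhIP. Members were taken by symbol: every probe set that the platform annotation maps to exactly 1 symbol, that symbol being 1 of these 10. All 10 genes were found, among 14218 genes named on the array, with 17 probe sets of 31099.

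The PhIP group consisted of 4 male F344 rats (a laboratory inbred strain), 6 weeks old, given 300 mg/kg PhIP and killed after 2 days. PhIP is a heterocyclic amine that forms in cooked meat and damages DNA after metabolic activation. The Control group was 4 rats of the same sex, strain and age without PhIP, and whether they received a vehicle is not given in the sources used here. Material of 2 rats of a group was mixed on each array, so there were 2 PhIP arrays and 2 Control arrays. The replicate is thus a pool of 2 rats, and no value belongs to a single animal. The whole lobe was the labelled tissue, so epithelium and stroma were measured together.

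Collagen fibrils are assembled from triple helices, mostly of type I collagen (chains encoded by Col1a1 and Col1a2) and type III collagen (Col3a1). Type V collagen, whose chains are encoded by Col5a1 and Col5a2, is built into the same fibrils and helps to start them, and type XIV collagen (Col14a1) binds to their surface. In the endoplasmic reticulum, prolyl 4-hydroxylase (catalytic subunit P4ha1) and lysyl hydroxylase 2 (Plod2) modify the chains, and the chaperone HSP47 (Serpinh1) binds the folded helix. Lysyl oxidase (Lox) cross-links the chains outside the cell. In the prostate, these genes are expressed mainly by the fibroblasts and smooth muscle cells around the glands.

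Values are MAS5 signals on a linear scale, as deposited, which can be compared between arrays for 1 probe set but not between probe sets. Fold changes are PhIP minus Control on the log2(signal + 10) scale, which understates the change of dim probe sets. They were tested with limma over the 18625 probe sets above an intensity filter, and p-values were adjusted with the Benjamini-Hochberg method over all of these. All 17 member probe sets passed that filter.

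All 10 genes had a lower signal on both PhIP arrays than on either Control array in their brightest probe set, as did 26.9% of the 10507 genes tested. In these probe sets the PhIP mean was between 44.8% (Serpinh1) and 83.5% (P4ha1) of the Control mean. The median log2 fold change of the 10 genes was −0.69, against −0.03 over the 10507 genes tested. By probe set, 16 of 17 did not overlap between groups in this direction, as did 26.0% of all tested probe sets. Among the 16 was the dimmer Serpinh1 probe set, whose PhIP mean was under the filter level, so that it passed through Control. At an unadjusted limma p under 0.05, 12 of 17 were lower and 0 higher, against 7.61% lower and 5.36% higher over the array. None of the 17 passed an adjusted p of 0.05, which 0.0268% of tested probe sets passed (5 of 18625). With 2 arrays a group, an exact permutation test of a single probe set cannot give a two-sided p below 0.333.

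**Figure D1:**
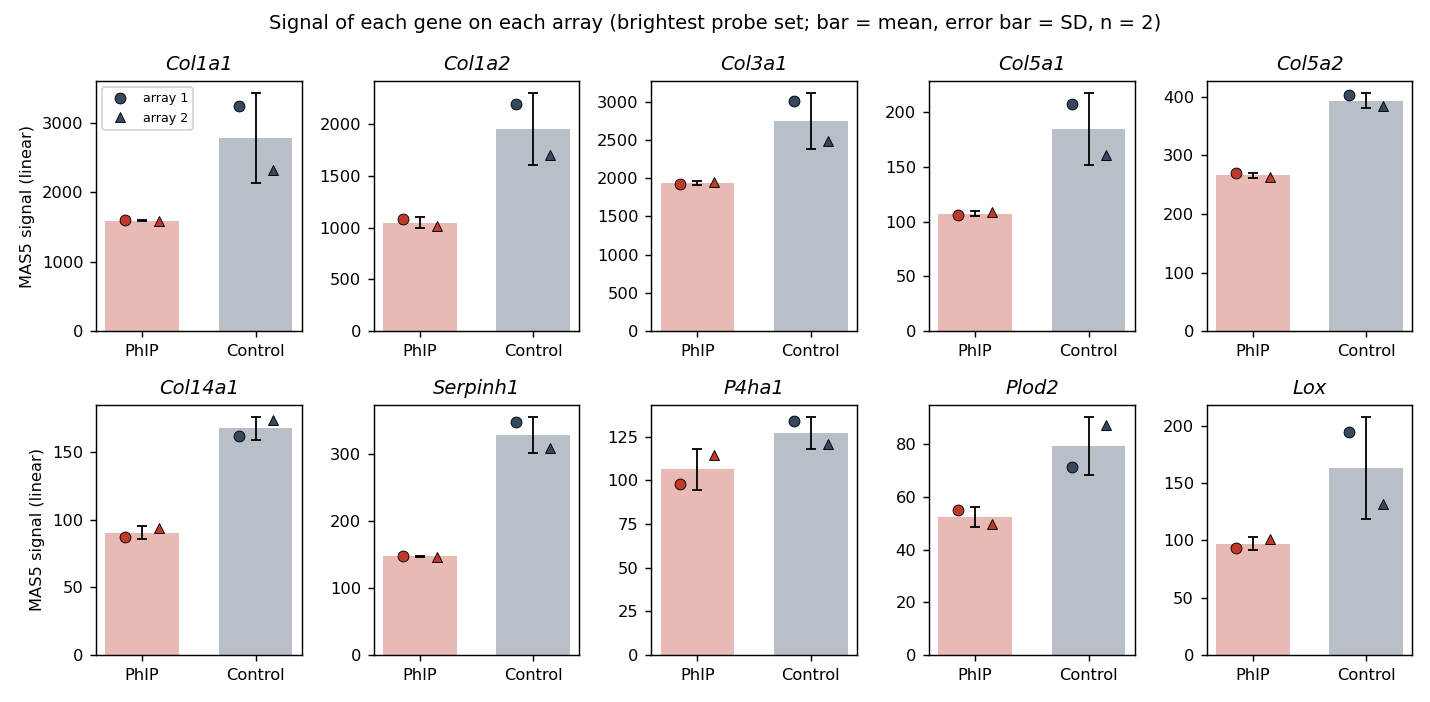
MAS5 signal (linear scale, from 0) of the brightest probe set of each of the 10 genes on the 2 PhIP arrays (red, left) and the 2 Control arrays (grey, right), with circles for array 1, triangles for array 2, bars for the mean and error bars for the SD. In every panel both PhIP points lie below both Control points. The Control arrays lie farther apart than the PhIP arrays for every gene but P4ha1.

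Col1a1, which encodes the α1 chain of type I collagen, had signals of 1594.3 and 1584.5 on the PhIP arrays, against 3237.7 and 2320.8 on the Control arrays. The groups did not overlap, and the PhIP arrays differed by far less than the Control arrays did. The log2 fold change was −0.78 ± 0.14 (SE, limma adjusted p = 0.0977). A second Col1a1 probe set had 582.7 and 551.7 with PhIP and 1266.9 and 843.4 in Control, a change of −0.86 ± 0.17 (limma adjusted p = 0.116).

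Col1a2 encodes the α2 chain of the same heterotrimer. Its signals were 1085.0 and 1011.5 with PhIP, against 2198.7 and 1704.2 in Control. The change was −0.88 ± 0.12 (limma adjusted p = 0.0534). The second Col1a2 probe set had 761.8 and 763.5 with PhIP and 1637.8 and 1167.8 in Control, with nearly the same change (−0.85 ± 0.15, limma adjusted p = 0.0929). The 4 probe sets of type I collagen thus lay between −0.88 and −0.78. Within arrays, the log2 ratio of the Col1a1 to the Col1a2 signal changed by 0.10, with overlapping groups and a pooled SD of 0.07. Whether the chains differed was not tested beyond these values.

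Col3a1, the single chain of type III collagen, is measured by 1 probe set. It had 1918.9 and 1954.6 with PhIP, against 3007.6 and 2491.9 in Control. This change was smaller than that of type I collagen, at −0.50 ± 0.10 (limma adjusted p = 0.110). The log2 ratio of Col1a1 to Col3a1 was lower on both PhIP arrays than on either Control array, by −0.29 with a pooled SD of 0.11. That difference was not tested beyond these values.

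Both genes of type V collagen also had lower signals with PhIP. Col5a1 had signals of 106.0 and 108.7 with PhIP, against 207.7 and 161.1 in Control (−0.72 ± 0.16, limma adjusted p = 0.148). Its other probe set had 46.5 and 47.7 with PhIP and 94.3 and 78.2 in Control (−0.75 ± 0.18, limma adjusted p = 0.163). Both Col5a1 probe sets placed the PhIP arrays within 3 signal units of each other and well under Control.

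Col5a2 had signals of 269.2 and 262.5 with PhIP, against 402.8 and 384.4 in Control (−0.55 ± 0.11, limma adjusted p = 0.115). Here the Control arrays lay close together. The dimmer Col5a2 probe set had 209.5 and 209.1 with PhIP but 393.2 and 225.9 in Control (−0.49 ± 0.23, limma adjusted p = 0.415), so its change came mostly from Control 1. Col5a2 and Col3a1 are neighbours in the RefSeq gene table of assembly GRCr8, with 0 genes between them, and their changes were −0.55 and −0.50.

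Col14a1 encodes a collagen that does not form fibrils itself but decorates them. Its brighter probe set had 87.0 and 94.0 with PhIP, against 161.7 and 173.8 in Control (−0.82 ± 0.14, limma adjusted p = 0.0929). Unlike type I collagen, Col14a1 was not higher in Control 1 than in Control 2. The dimmer probe set had 55.2 and 49.1 with PhIP and 63.1 and 71.9 in Control. Its change was −0.32 ± 0.18 (limma adjusted p = 0.488), of the same sign but less than that of the brighter one.

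Among the genes for folding and processing, the collagen chaperone gene Serpinh1 had the lowest log2 fold change of all 17 probe sets. Its brighter probe set had 147.8 and 147.2 with PhIP, against 348.4 and 309.7 in Control. The PhIP mean was thus 44.8% of the Control mean, with a log2 fold change of −1.10 ± 0.13 (limma adjusted p = 0.0517). This was the 45th lowest change of the 18625 probe sets tested. The suffix of this probe set marks probes that may match several transcripts. The other Serpinh1 probe set was near the filter, with 6.9 and 14.9 with PhIP and 24.8 and 18.7 in Control (−0.62 ± 0.29, limma adjusted p = 0.417). Within arrays, the log2 ratio of Serpinh1 to Col1a1 was lower on both PhIP arrays than on either Control array, by −0.32 with a pooled SD of 0.16. It was −0.32 on each PhIP array relative to the Control mean, against −0.16 in Control 1 and 0.16 in Control 2.

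P4ha1, the catalytic subunit of the enzyme whose hydroxyproline stabilises the triple helix, had the smallest change of the 10 genes. Its signals were 97.9 and 114.6 with PhIP, against 133.8 and 120.8 in Control (−0.24 ± 0.15, limma adjusted p = 0.537). PhIP 2 lay close to Control 2. The change of P4ha1 was −0.014 with arrays scaled to the hybridization controls. Relative to Col1a1, P4ha1 was higher on both PhIP arrays than on either Control array, by 0.54 with a pooled SD of 0.20.

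Plod2 hydroxylates lysines of the telopeptides, which directs the type of cross-link formed. Its signals were 55.1 and 49.6 with PhIP, against 71.6 and 87.3 in Control (−0.52 ± 0.18, limma adjusted p = 0.300). For Plod2, Control 2 was the higher of the Control arrays. Its ratio to Col1a1 overlapped between the groups (0.27, pooled SD 0.37).

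Lox, the lysyl oxidase, gave different answers in its 2 probe sets. In the brighter one the signals were 93.2 and 101.1 with PhIP, against 194.8 and 131.4 in Control (−0.67 ± 0.20, limma adjusted p = 0.239). In the other they were 105.8 and 93.6 with PhIP, against 146.2 and 82.6 in Control. There the groups overlapped, and the change was −0.13 ± 0.24 (limma adjusted p = 0.831). This was the only member probe set with overlapping groups. Its sign was turned by leaving out Control 1 (0.24), by scaling to the hybridization controls (0.093) and by median centring (0.0015).

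**Figure D2:**
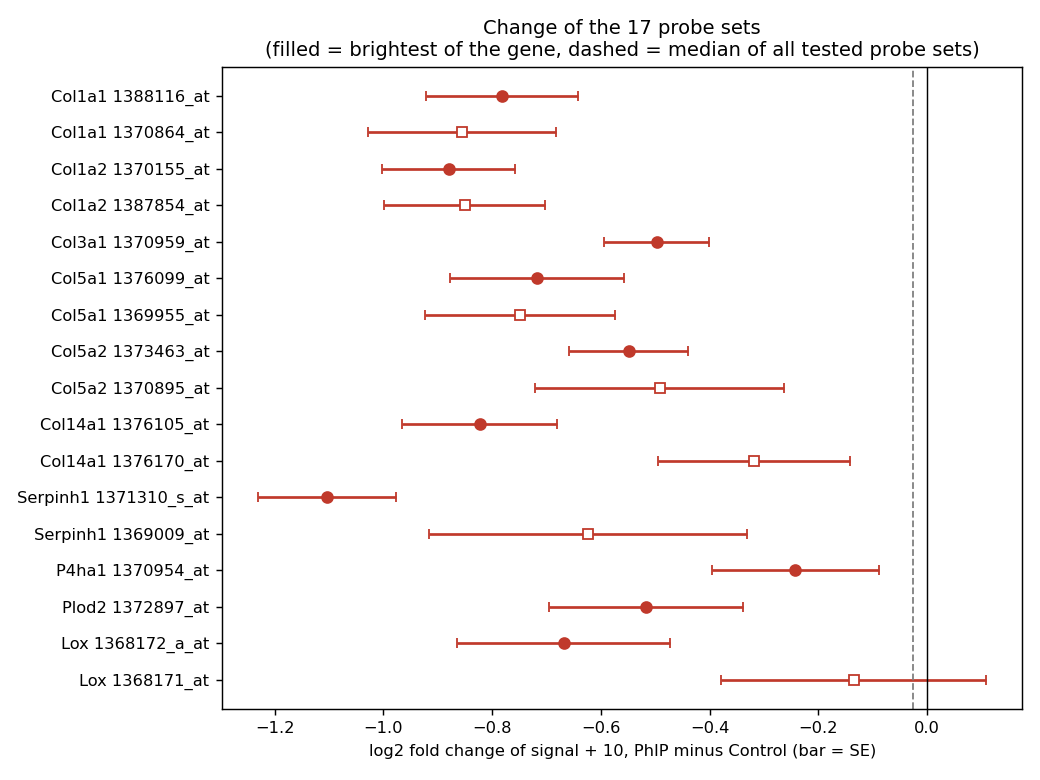
Log2 fold change (PhIP minus Control, on log2(signal + 10), with its limma SE) of the 17 probe sets, filled for the brightest probe set of each gene and open for the others, with the median of all tested probe sets dashed at −0.03. All points lie below 0, from −1.10 (Serpinh1) to −0.13 (the dimmer Lox probe set).

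Promoter sequences were looked up because the changes of these genes shared a direction. They were taken from the RefSeq table of assembly GRCr8, which held a window for 6 of the 10 genes: Col1a2, Col5a1, Col5a2, Serpinh1, P4ha1 and Plod2. In the 250 bases before each start site, 5 motifs were searched on both strands. The first was the CCAAT motif, a common promoter element. The GC box, to which factors of the Sp family bind, was searched as GGGCGG. For the box bound by the TATA-binding protein, the letters were TATAAA. The heat shock motif, a pair of units of the element that heat shock factors bind, was searched as GAANNTTC. The last was the core of the hypoxia response element, with the letters ACGTG. Of 33469 promoter windows of that length, 34.0% held the CCAAT motif, 30.5% the GC box, 12.9% the box of the TATA-binding protein, 7.23% the heat shock motif and 16.6% the hypoxia core.

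A stretch is shown for 3 genes with different motifs, written 5′ to 3′ on the strand of the gene, with the motifs in capitals. For Col1a2 (chr4:33518307-33518426, plus strand) the capitals mark the CCAAT motif on the opposite strand, 221 bases before the start site, and the box of the TATA-binding protein, 170 bases before it. For Serpinh1 (chr1:163062977-163063076, minus strand) they mark the heat shock motif, 30 bases before the start site. That site lies 201 bases inside the span of the gene in the same assembly. For Plod2 (chr8:101964068-101964317, plus strand) they mark the heat shock motif at 212 bases, the hypoxia core on the opposite strand at 178 and 133 bases, and the GC box on the opposite strand at 58 and 46 bases before the start site.
Col1a2: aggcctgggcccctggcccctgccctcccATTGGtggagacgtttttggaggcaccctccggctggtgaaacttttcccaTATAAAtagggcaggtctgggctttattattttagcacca
Serpinh1: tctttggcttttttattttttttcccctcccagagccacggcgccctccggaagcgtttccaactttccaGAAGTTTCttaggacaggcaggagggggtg
Plod2: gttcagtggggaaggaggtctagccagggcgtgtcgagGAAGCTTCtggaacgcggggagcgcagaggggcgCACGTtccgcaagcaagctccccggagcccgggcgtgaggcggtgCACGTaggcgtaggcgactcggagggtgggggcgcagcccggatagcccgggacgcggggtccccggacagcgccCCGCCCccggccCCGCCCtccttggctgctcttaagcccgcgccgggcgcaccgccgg

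Outside these stretches, the windows of Col5a1 and Serpinh1 held the GC box, 127 and 129 bases before the start site. None of the 5 motifs was found in the windows of Col5a2 and P4ha1. No motif occurred in all 6 windows, and no motifs overlapped in the stretches shown. These matches describe the letters only.

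The arrays of a group did not differ equally. Across the 17 probe sets, the median log2 difference was 0.003 between the PhIP arrays (PhIP 1 minus PhIP 2) and 0.28 between the Control arrays (Control 1 minus Control 2). Of the 17, 14 were higher in Control 1, whereas 45.5% of all tested probe sets were. For Col1a1, Control 2 stood at 71.7% of Control 1 in the brighter probe set. The ratio of 3′ to 5′ signal, which rises as RNA degrades, was 3.93 and 3.49 for actin on the PhIP arrays, against 4.18 in Control 1 and 5.71 in Control 2. For Gapdh it was 1.45 and 1.44 on the PhIP arrays, against 1.34 in Control 1 and 2.06 in Control 2. The part of this in the lower collagen signals of Control 2 was not tested.

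The size of the change therefore depended on the Control array. Without Control 1, the median change of the 10 genes was −0.54, and without Control 2 it was −0.83. Col1a1 stood at −0.54 without Control 1 and at −1.02 without Control 2. Serpinh1 stood at −1.02 and −1.19 in the same fits, and Col14a1 at −0.87 and −0.77. Leaving out a PhIP array moved the median only to −0.66 (without PhIP 1) or −0.73 (without PhIP 2). When 1 Control array was left out, the lone Control array was assumed to vary as the PhIP arrays did. The count past an adjusted limma p of 0.05 was then 9 of 16 tested member probe sets without Control 1 and 12 of 17 without Control 2. In these fits 2361 and 467 of 18625 probe sets passed on the whole array. Without PhIP 1 or PhIP 2, 0 member probe sets passed the adjusted limma threshold, as did 0 of 18625 on the whole array. At an unadjusted p under 0.05, 10 member probe sets were lower without PhIP 1 and 12 without PhIP 2, against 3.76% and 3.91% of all tested probe sets.

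**Figure D3:**
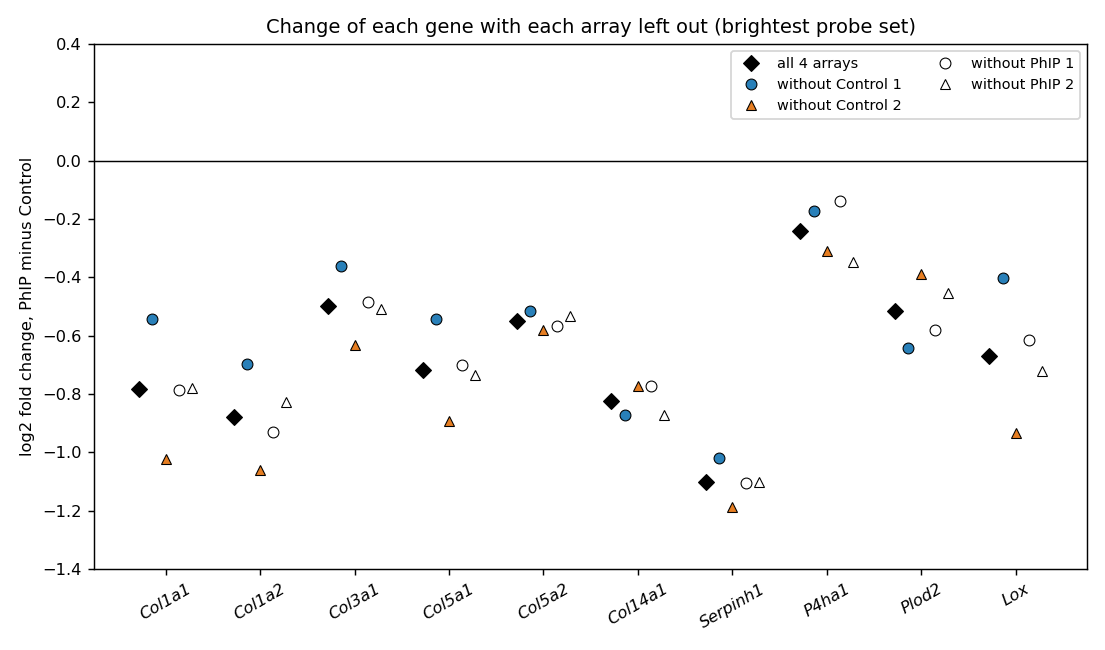
Log2 fold change (PhIP minus Control) of the brightest probe set of each gene with all 4 arrays (black diamonds) and with each array left out in turn. All values lie below 0. Leaving out Control 1 (blue) brings the Col1a1 change to −0.54 and leaving out Control 2 (orange) to −1.02, while Col14a1 and Plod2 move the other way.

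Genes beside the 10 in the same pathway were counted by their brightest probe set. Of the 10507 genes tested, 8.45% were lower and 6.12% higher at an unadjusted limma p under 0.05. None of the genes counted in the following lists passed an adjusted p of 0.05.

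A list of 12 other collagen genes held fibrillar and fibril-associated collagens and also chains of types VI and VIII. Of the 12, 7 were tested and the other 5 were too dim. Those 5 all encode fibrillar chains, whereas most of the 7 do not, so the counts below say little about other fibrillar collagens. The fibrillar chain among the 7, Col11a1, had 10.6 and 8.3 with PhIP, against 23.8 and 24.6 in Control (−0.82 ± 0.25). Col11a1 was under the filter level on both PhIP arrays and passed it through Control. It was named after its value was seen. At an unadjusted p under 0.05, 6 of the 7 were lower and 0 higher, and the median was −0.52. With median centring 3 were lower at that p, and with arrays scaled to the hybridization controls 1 was. The 7th, Col8a1, stood at −0.13 and was above 0 under all 4 other scalings. Col6a3, a chain of the microfibrillar type VI collagen, had 171.3 and 177.8 with PhIP, against 434.2 and 282.6 in Control (−0.97 ± 0.19). Its partner chain Col6a1 stood at −0.57 ± 0.14. Col12a1, which like Col14a1 binds fibril surfaces, had 59.4 and 46.3 with PhIP, against 80.4 and 78.4 in Control (−0.52 ± 0.18).

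Of the lysyl oxidase family, Loxl1 and Loxl2 had changes of a size with that of the brighter Lox probe set. Loxl1, best known for its part in elastic fibres, had 67.2 and 66.6 with PhIP, against 127.5 and 106.9 in Control (−0.72 ± 0.16). Loxl2, which cross-links basement membrane collagen, had 28.7 and 31.2 with PhIP, against 59.0 and 64.8 in Control (−0.85 ± 0.19). Of 3 tested family members outside the set, these 2 were lower at an unadjusted p under 0.05. The remaining one, Loxl3, overlapped between groups (−0.13 ± 0.27) and was above 0 under all 4 other scalings. Loxl3 was named after its value was seen. Of the genes for removing procollagen propeptides, only 2 of 8 were named on the array. Pcolce, the enhancer of the C-proteinase, had 126.1 and 117.3 with PhIP, against 184.2 and 172.2 in Control (−0.52 ± 0.14), and the proteinase gene Bmp1 stood at −0.34 ± 0.21.

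The other folding and modifying genes were less uniform. Of 13 tested, 3 were lower and 0 higher at an unadjusted p under 0.05, with a median of −0.26. The median was −0.03 with scaling to the hybridization controls, where 0 were lower and 1 higher at that limma p. The 3 were Fkbp10 (−0.68 ± 0.24), a prolyl isomerase that acts on procollagen, Fkbp14 (−0.67 ± 0.20), a related isomerase, and Creb3l1 (−0.53 ± 0.20), a transcription factor for collagen genes. Fkbp14 and Creb3l1 were named after their values were seen. The lysyl hydroxylases Plod1 (−0.32 ± 0.15) and Plod3 (−0.26 ± 0.12) did not overlap between groups. P4ha2, the alternative catalytic subunit of prolyl 4-hydroxylase, overlapped (−0.38 ± 0.22, dimmer probe set −0.10 ± 0.29). The dimmer probe set was above 0 under all 4 other scalings. The groups also overlapped for P3h1, the prolyl 3-hydroxylase (−0.21 ± 0.20, but 0.01 with scaling to the hybridization controls). Crtap, the partner of P3h1, was too dim to be tested.

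P4hb, the β subunit of prolyl 4-hydroxylase, also serves as protein disulfide isomerase in secretory cells. It had 6201.3 and 6219.2 with PhIP, against 5763.3 and 6262.6 in Control (0.05 ± 0.06). Ppib, a cyclophilin that also forms part of the prolyl 3-hydroxylation complex, stood at 0.01 ± 0.07. The groups overlapped for both. General chaperones of the endoplasmic reticulum had a median of 0.12 over 8 genes, with 2 higher and 1 lower at an unadjusted p under 0.05. Hspa5, which encodes BiP, stood at 0.03 ± 0.05 and Hsp90b1, which encodes GRP94, at 0.23 ± 0.07. The lower one, named after its value was seen, was the co-chaperone gene Dnajb9 (−0.67 ± 0.16). The values of P4hb, Ppib and Hspa5 were above 0 with median centring and with scaling to the hybridization controls but below 0 after quantile normalization (−0.05, −0.05 and −0.06) and cyclic loess, so their direction was not settled. The median of the general chaperones was between 0.06 (cyclic loess) and 0.34 (hybridization controls), with 7 of 8 higher at an unadjusted p under 0.05 with the hybridization controls.

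Proteins that bind fibrils were lower in part. Of 11 tested genes, 6 were lower and 0 higher at an unadjusted p under 0.05, with a median of −0.46. With median centring 2 were lower at that p, and with scaling to the hybridization controls 1 was. Sparc, a collagen-binding glycoprotein of the matrix, had 1069.7 and 995.8 with PhIP, against 1543.0 and 1457.1 in Control. The fibril-spacing proteoglycan genes differed. Lum (lumican) stood at −0.49 ± 0.15, whereas Dcn (decorin) had 1722.3 and 1740.5 with PhIP and 2097.7 and 1627.2 in Control, with overlapping groups (−0.09 ± 0.12, but 0.04 with median centring and 0.13 with scaling to the hybridization controls). Fn1, which encodes fibronectin, stood at −0.46 ± 0.14, and Postn, which encodes periostin, overlapped (−0.22 ± 0.28).

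Among genes for collagen breakdown, 1 of 3 tested was lower at an unadjusted p under 0.05. This was the membrane collagenase gene Mmp14 (−0.42 ± 0.15), whose dimmer probe set stood at 0.11 ± 0.26. With median centring and with scaling to the hybridization controls, 0 of the 3 were lower at that p. The gelatinase gene Mmp2 stood at −0.32 ± 0.15. Ctsk, the cathepsin that degrades collagen in lysosomes, had 22.7 and 22.4 with PhIP but 47.1 and 4.6 in Control, so its Control arrays spanned the PhIP values.

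Genes of TGF-β signalling, an inducer of collagen genes, did not shift one way as reported. Of 7 tested, 2 were lower and 1 higher at an unadjusted p under 0.05, and the median was 0.04. With median centring and with scaling to the hybridization controls, 0 were lower and 2 higher at that p. The medians were then 0.17 and 0.27. As reported, the lower ones were Tgfb1 and Smad7 (−0.73 ± 0.27, dimmer probe set −0.63 ± 0.25), and the higher one was Tgfbr1 (0.40 ± 0.12). Smad7 and Tgfbr1 were named after their values were seen. The ligand gene Tgfb1 had signals of 15.6 and 25.1 with PhIP and 34.1 and 40.4 in Control (−0.65 ± 0.24). Tgfb3, another ligand gene, had 348.9 and 343.5 with PhIP and 316.4 and 358.7 in Control (0.04 ± 0.12). Ccn2, which encodes connective tissue growth factor and is induced by TGF-β, had 1040.1 and 887.2 with PhIP, against 868.1 and 737.2 in Control (0.26 ± 0.12). P4ha1, Plod2 and Lox are known targets of hypoxia-inducible factor, so other such targets were counted. Of 9 tested, 0 were lower and 1 higher at an unadjusted p under 0.05, with a median of −0.09. Slc2a1, a glucose transporter, stood at 0.18 ± 0.13, and the glycolytic gene Ldha at −0.09 ± 0.10. Both the list median and Ldha were at 0.05 with median centring and 0.14 with scaling to the hybridization controls, where 3 of the 9 were higher at that p. Pgk1, also of glycolysis, stood at 0.14 ± 0.10 and, in a dimmer probe set, at −0.10 ± 0.11. The higher one, named after its value was seen, was Adm (adrenomedullin, 0.56 ± 0.10).

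Marker lists of several cell types also differed between the groups. The adipocyte, nerve and blood lists had medians of −0.83, −0.62 and −0.69, beside −0.69 for the 10 collagen and processing genes. At an unadjusted limma p under 0.05, 3 of 5 adipocyte, 4 of 5 nerve and 2 of 4 blood genes were lower. The remaining nerve gene, Mbp, was higher at that p (0.49 ± 0.19, dimmer probe sets −0.15 ± 0.19 and 0.39 ± 0.22). The blood gene Ptprc was also above 0 (0.23 ± 0.24). Mbp and Ptprc were named after their values were seen. In bulk tissue, fewer stromal cells and less RNA per cell cannot be told apart. Of 10 smooth muscle genes, 9 were lower at an unadjusted p under 0.05, with a median of −0.79. Acta2 (smooth muscle actin) had 823.0 and 766.7 with PhIP, against 1314.6 and 1554.4 in Control. The summed signal of this list was 4197 and 4149 with PhIP, against 6893 and 6930 in Control. The median level of the 10 collagen and processing genes minus that of the smooth muscle genes changed by 0.04, with a pooled SD of 0.13 and overlapping arrays. That difference was −0.0035 and 0.08 on the PhIP arrays, against 0.12 in Control 1 and −0.12 in Control 2. The summed smooth muscle signal was nearly equal in the Control arrays. The 10 collagen and processing genes summed to 9965 in Control 1 and 7885 in Control 2, against 5454 and 5428 with PhIP. Most of that sum came from the 5 fibrillar chains, with 9055 and 7062 in Control and 4973 and 4922 with PhIP. The 4 chaperone and enzyme genes summed to 748.6 and 649.2 in Control, against 394.0 and 412.5 with PhIP. Such sums follow their brightest probe sets and do not compare amounts between genes.

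Fibroblast markers outside the set were mostly lower. Of 10, 9 were below 0 and 1 above. At an unadjusted p under 0.05, 5 were lower and 0 higher, with a median of −0.44. With median centring and with scaling to the hybridization controls, 4 were lower at that p. Their summed signals were 1602 and 1577 with PhIP, against 2404 and 2202 in Control. Pdgfra, a receptor on prostate fibroblasts, had 131.8 and 148.8 with PhIP, against 204.6 and 218.2 in Control (−0.56 ± 0.14). The other genes lower at that p were S100a4 (−0.49 ± 0.16), Fbln1 (−0.69 ± 0.18), Mfap5 (−0.72 ± 0.11) and Fbn1 (−0.85 ± 0.15). These were named after their values were seen. Vim, which encodes the mesenchymal filament vimentin, overlapped (−0.24 ± 0.13), as did the surface marker gene Thy1 (0.10 ± 0.19, and −0.08 ± 0.37 in a dimmer probe set). Of 6 endothelial genes, 2 were lower at an unadjusted p under 0.05, with a median of −0.37. With scaling to the hybridization controls, 0 were lower at that p and the median was −0.14. The endothelial genes had summed signals of 206 and 209 with PhIP, against 290 and 301 in Control. Of 6 tested skeletal muscle genes, 3 were lower at that p, with a median of −1.33. Myl1, Myh4 and Tnni2 were under the filter level on both PhIP arrays and passed it through Control. The median and the call of Tnni2 thus rest partly on how the tested genes were picked. Myh4 had 6.6 and 3.8 with PhIP, against 0.5 and 164.6 in Control. Tnni2 had 2.9 and 4.6, against 20.2 and 71.4. Myh4 and Tnni2 were named after their values were seen. All 8 skeletal muscle genes on the array summed to 515 and 433 with PhIP, against 922 in Control 1 and 1698 in Control 2. Myl1, a defining marker of skeletal muscle, had 4.5 and 9.1 with PhIP, against 5.2 in Control 1 and 306 in Control 2. The summed signal of the 10 collagen and processing genes, mostly of the fibrillar chains, was lower in Control 2 than in Control 1. That is opposite to this list, although Col14a1 and Plod2 were higher in Control 2.

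Luminal epithelial genes went the other way: of 9, 5 were higher and 0 lower at an unadjusted p under 0.05, with a median of 0.17. By sign, 8 were above 0 and 1 below. Their summed signal was 21919 and 22131 with PhIP, against 20324 and 19095 in Control. Sbp, named after its value was seen, had 8219.2 and 8045.3 with PhIP, against 7243.7 and 6436.1 in Control (0.25 ± 0.07). Pbsn (probasin), a secretory product of the rat prostate, was the gene below 0, with overlapping groups (−0.06 ± 0.08). It was above 0 with median centring (0.08) and with scaling to the hybridization controls (0.17). Its signals were 4273.0 and 4643.4 with PhIP, against 4898.1 and 4398.8 in Control, so the labelled tissue carried this prostate product on all 4 arrays. No marker gene of the smooth muscle, fibroblast, endothelial, skeletal muscle and luminal lists was at 0 on all arrays. The part of cell composition in the collagen values was not tested.

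**Figure D4:**
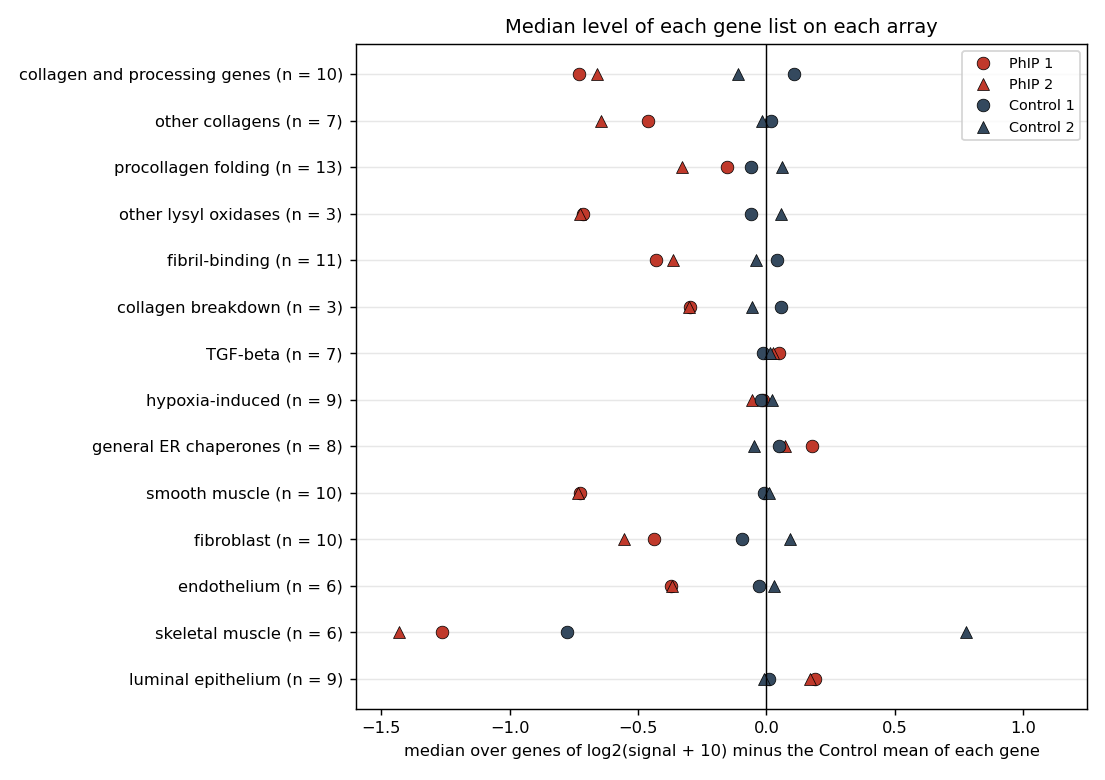
Median over the tested genes of each list of log2(signal + 10) minus the Control mean of the gene, for PhIP 1 and 2 (red) and Control 1 and 2 (grey), with the number of genes beside each list. The collagen and processing genes lie at −0.73 and −0.66 on the PhIP arrays, beside smooth muscle. The TGF-β and hypoxia lists lie near 0 and the luminal list above it. The adipocyte, nerve and blood lists, with medians of −0.83, −0.62 and −0.69, are not drawn.

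The genes most like the mean profile of the 10 over the 4 arrays were found by the root mean square distance of centred log2 values, among 10497 other genes. They were Acat2, Shank3, Mfap5, Tmem70 and Loxl1, at distances of 0.017 to 0.027 on the log2 scale. Acat2, an acetyl-CoA acetyltransferase gene, had 338.8 and 350.7 with PhIP, against 611.2 and 517.1 in Control. Mfap5, which encodes a microfibril protein, had 329.2 and 344.8 with PhIP, against 603.8 and 520.8 in Control. Mfap5 and Loxl1 are themselves genes of the matrix. Shank3 and Tmem70 were dim, with no signal above 32.8. Over only 4 arrays, such likeness describes these arrays.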

How the data were processed

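The values are intensities, 1 MAS5 signal for each probe set on each array, as deposited. The submitters' processing notes name MAS5 without a version, and the scaling target and detection calls were not used here. The 2% trimmed mean was 100.0 on each array, and the median signal was 23.2 and 23.1 on the PhIP arrays and 25.5 and 27.4 on the Control arrays. The number of arrays limits the precision. RNA input was 5 µg per labelling, per the labels' protocols, and nothing in the labels gives a batch. Log2 values correlated at r = 0.987 between the PhIP arrays and 0.972 between the Control arrays. Across groups, Control 1 gave r = 0.980 and 0.979 with PhIP 1 and PhIP 2, and Control 2 gave 0.967 and 0.964, so Control 1 was closer to both PhIP arrays than to Control 2.

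Manufacturer controls (57 probe sets) were removed. Signals were analysed as log2(signal + 10). Probe sets with a mean above the 40th percentile were tested (18625 of 31042) with limma 3.58.1 in R 4.3.3 (lmFit, eBayes with trend), with 2 residual and 5.67 prior degrees of freedom. Python 3.11.15 and matplotlib 3.10.9 made the summaries and plots. The steps were tested on simulated data. Single symbols came from the platform annotation, and all 17 member probe sets matched RefSeq by Entrez identifier. A gene with several probe sets was counted by the brightest.

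The members, lists and tests were chosen with earlier results of these data known. All members were named, and in the 17 companion lists the genes named were fixed by role, except where the text says otherwise. The lists given by medians and counts, with only Mbp and Ptprc named (adipocyte, nerve and blood), had −0.83, −0.62 and −0.69 over 5, 5 and 4 tested genes. Alternatives were other constants, filters, scalings and eBayes settings, the replicate number as a block, and leaving out each array.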

Additional observations from a re-analysis of the deposited data

How the results depend on the processing

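The log2 fold change of the 17 probe sets was recomputed under 16 alternatives, giving 270 values (the dimmer Serpinh1 probe set was not tested at the 60th percentile filter or without Control 1). Of these, 3 changed sign, all in the dimmer Lox probe set: 0.0015 (median centring), 0.093 (scaling to the hybridization controls) and 0.24 (without Control 1). With an array left out, this probe set ranged from −0.51 to 0.24. A further 29 passed an adjusted limma p of 0.05, which none did as reported. Of these, 9 came without Control 1 and 12 without Control 2, fits in which 2361 and 467 probe sets passed on the whole array. The others include Serpinh1 with a constant of 20 (adjusted p = 0.0490), the 60th percentile filter (0.0456), robust eBayes (0.0308) and scaling to the hybridization controls (0.0307), and its adjusted p ranged from 0.000395 to 0.582 over the alternatives.

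The number of all probe sets past that threshold was 5 as reported, 22 with a constant of 20, 44 with the 60th percentile filter, 52 with robust eBayes, 165 with scaling to the hybridization controls and 3 with cyclic loess. It was 0 with median centring, with quantile normalization, with eBayes without trend or when all probe sets were kept, and between 0 and 2361 with an array left out. The 12 member probe sets lower at an unadjusted p under 0.05 became between 9 (hybridization controls) and 14 (without Control 2). The same share over all tested probe sets was 1.92% with scaling to the hybridization controls, 14.6% without Control 1, where 12 member probe sets were lower, and 7.61% as reported. The median change of the member genes (−0.69) was −0.55 when probe sets of a gene were averaged, −0.56 with median centring and −0.47 with scaling to the hybridization controls. It ranged from −0.83 to −0.54 with an array left out. The member median minus the smooth muscle median (0.04) was 0.17 when probe sets were averaged and between −0.12 and 0.20 with an array left out. Median centring and scaling to the hybridization controls moved the median of all tested probe sets to 0.11 and 0.20, and the 18 hybridization controls were lower with PhIP by −0.23 on average. The cause of these differences was not tested.

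With the replicate number as a block, 35 probe sets passed, among them Col1a2 (adjusted p = 0.0295) and Serpinh1 (adjusted p = 0.0365). The labels do not say what the numbers share, and same-numbered arrays deviated from their group means with a correlation of −0.056, so the block is given only here.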
